A study of Homo sapiens with 267 samples.

Results

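The genes described here are 10 members of the pathways that sense and metabolize aromatic compounds, read in single-cell RNA-seq libraries of K562 cells. They are AHR, ARNT, AHRR, TIPARP, CYP1A1, CYP1B1, CYP2E1, EPHX1, MPO and GSTP1. They were chosen by symbol, and all 10 had a row among the 63677 genes of the count table, of which 27221 had more than 2 reads in at least 1 library used here. K562 is an established human erythroleukemia line that carries the BCR-ABL fusion and expresses embryonic and fetal globins. Libraries were made on C1 microfluidic chips and fall into 3 runs, named here by what their labels state. In the Hoechst run (96 libraries, passages 90 to 92) untreated cells carried 2 µM Hoechst 33342 and 3.75 µM propidium iodide for 20 min. In the benzene run (passages 20 to 22) untreated cells carried CellTracker Green and cells given 10 mM benzene for 3 h carried CellTracker Orange, with 38 and 37 libraries in the labels. In the imatinib run (passages 20 to 22) untreated cells were Green (51 libraries) and cells given 1 µM imatinib, a BCR-ABL kinase inhibitor, for 1 h were Orange (45 libraries). CellTracker dyes were used at 1 µM for 30 min together with a fixable red viability dye. The labels give the passage values with the unit hours, and reading them as passages is an assumption. Each combination of stain and drug is 1 culture, so the libraries are cells of that culture and not replicates of a treatment, and no test was made. Dye and drug moved together in both CellTracker runs and cannot be told apart. The runs mixed fresh and fixed cells, single cells and bulk samples, but the labels do not say which library is which, and these were not mapped. In the benzene run 4 library titles had no count column and 4 columns had no title. None of these was used, and this leaves some doubt about how titles and stains match in that run.

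Of 263 libraries with counts, 242 were kept, namely those with at most 70% of gene reads in their 500 highest genes: 82 of the Hoechst run, 65 of the benzene run (31 Green and 34 Orange) and 95 of the imatinib run (50 Green and 45 Orange). Kept libraries held 50358 to 2043351 gene reads, and the run medians lay between 1234117 and 1336630. The median number of genes with more than 2 reads was 5905 in the benzene run, 7410.5 in the Hoechst run and 8022 in the imatinib run. In each run all 8 K562 markers (PRAME, GATA1, KLF1, HBE1, HBZ, HBG1, HBG2 and TFRC) had more than 2 reads in at least 20% of libraries, and their summed level lay between 3130 and 19300 counts per 1000000 gene reads (CPM) in a library. HBG1 and HBG2 are near-identical copies whose reads can be split between them. None of the 5 genes of the granulocyte list, the lymphocyte list or the hepatocyte list reached that share in any run, their summed levels in a library being at most 45.2, 329 and 216 CPM with medians of 0.

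Benzene is not itself the main toxic species. In liver and marrow it is oxidized to benzene oxide, chiefly by the cytochrome P450 enzyme CYP2E1, and epoxide hydrolases, peroxidases, quinone reductases and transferases then act on the oxide, the phenols and the quinones that follow. AHR, the aryl hydrocarbon receptor, is a ligand-activated transcription factor that waits in the cytosol with HSP90 and PTGES3, pairs with ARNT in the nucleus and binds a core of GCGTG near genes such as CYP1A1, CYP1B1, AHRR and TIPARP. AHRR and TIPARP in turn repress the receptor.

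The promoter sequences below are shown because these 3 genes are textbook targets of the receptor and differed widely in detection in these libraries. Each is the 250 bases before the start of transcription, read 5′ to 3′ on the gene's strand from the RefSeq table on GRCh38.p14, with each GCGTG or its reverse complement CACGC in capitals. These coordinates are not on the build of the counts, which is GRCh37.
CYP1A1, chr15:74725529-74725778, minus strand: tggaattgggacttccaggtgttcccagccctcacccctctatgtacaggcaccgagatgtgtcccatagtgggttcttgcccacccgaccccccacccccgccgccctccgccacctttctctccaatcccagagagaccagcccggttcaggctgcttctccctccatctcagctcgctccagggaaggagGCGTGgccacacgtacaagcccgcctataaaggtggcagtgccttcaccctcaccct
AHRR, chr5:321464-321713, plus strand: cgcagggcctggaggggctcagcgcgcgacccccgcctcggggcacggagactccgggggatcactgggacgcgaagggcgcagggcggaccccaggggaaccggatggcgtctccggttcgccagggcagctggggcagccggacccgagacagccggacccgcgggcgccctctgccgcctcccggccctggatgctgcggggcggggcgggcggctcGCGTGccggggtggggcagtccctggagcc
TIPARP, chr3:156674340-156674589, plus strand: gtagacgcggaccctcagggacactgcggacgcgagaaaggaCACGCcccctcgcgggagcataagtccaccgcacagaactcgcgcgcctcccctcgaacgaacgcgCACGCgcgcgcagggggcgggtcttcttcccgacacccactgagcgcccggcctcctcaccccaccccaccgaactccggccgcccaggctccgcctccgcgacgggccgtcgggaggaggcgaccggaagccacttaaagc
The CYP1A1 window holds 1 core, 57 bases before the start, the AHRR window 1 core at 30 bases, and the first of the 3 TIPARP windows 2 cores at 208 and 142 bases, the other 2 TIPARP windows holding none. The table held 13 such windows for 8 of the 10 genes, CYP1B1 and MPO having no entry. A further AHRR window held 2 cores, as did 1 of the 3 EPHX1 windows, while the AHR, ARNT, CYP2E1 and GSTP1 windows held none. Among all 35116 windows of the table, 32.2% held at least 1 core and 10.2% held 2 or more. A match is a description of the letters and not a bound site.

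Of the 10 genes, 3 were expressed broadly: GSTP1 in every library, ARNT in most and TIPARP in 127 of 242. EPHX1 and AHRR were seen in a minority of libraries, CYP2E1 in 2 libraries, and AHR, CYP1A1, CYP1B1 and MPO in none of the 242 at more than 2 reads. Detection here means more than 2 reads of the gene in a library. Per kilobase of transcript and per 1000000 gene reads over all kept libraries, GSTP1 stood at 2452, ARNT at 11.95, TIPARP at 8.588, EPHX1 at 1.14 and AHRR at 0.1749. GSTP1 was highest in each run. The order of ARNT and TIPARP differed between groups, TIPARP standing above ARNT in both Green groups and below it in the Hoechst run and in both Orange groups. Single libraries weighed on this order. Without its highest library TIPARP fell from 42.41 to 20.98 CPM in Green of the benzene run, below ARNT per kilobase. In Green of the imatinib run it fell from 38.95 to 32.28 CPM, again below ARNT per kilobase. Transcript lengths were taken from GENCODE v44lift37, whereas counting had used the older Ensembl 75 genes.

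**Figure D1:**
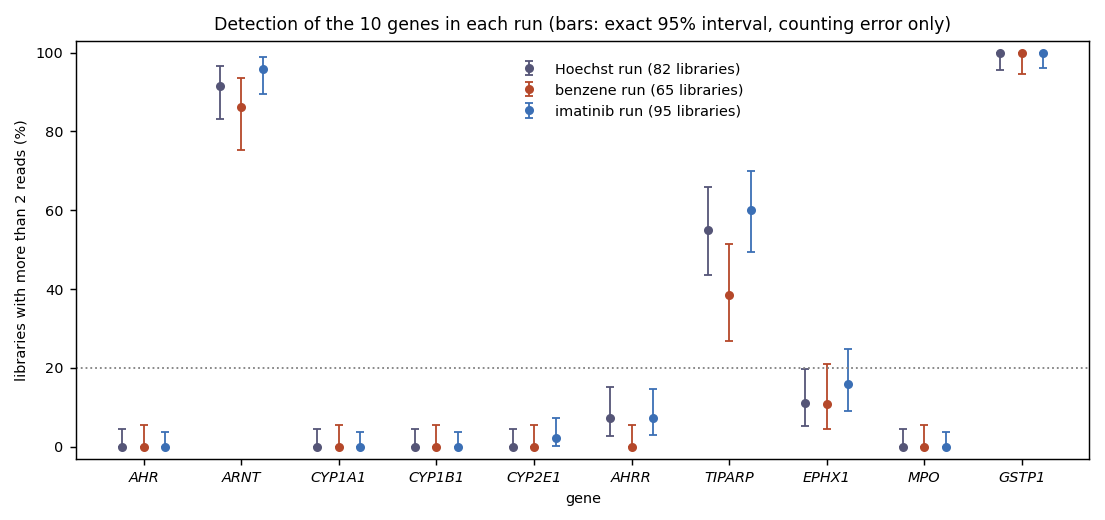
Share of libraries with more than 2 reads of each gene (vertical axis, %) in the 3 runs (points, with exact 95% binomial intervals for counting error only). The dotted line marks 20%, which GSTP1, ARNT and TIPARP passed in each run and the other 7 genes in none.

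AHR (ENSG00000106546, chromosome 7, 17338276 to 17385771, plus strand, all gene positions being on GRCh37) was close to absent. It had 1 read in each of 4 libraries of the Hoechst run, 1 read in 1 Green library of the imatinib run and no read in the 65 libraries of the benzene run. The 5 reads came from a total of 312147251, which is 0.01602 CPM with an exact Poisson 95% interval of 0.005201 to 0.03738. No library had more than 2 reads, and 0 of 242 allows a share of up to 1.24% (3 libraries of the total). In the benzene run the 0 reads allowed a level of up to 0.071 CPM in Green and 0.0652 CPM in Orange. Such limits, here and below, were taken as 3 reads over the summed total and cover counting error only. Among the 21 libraries left out, 1 had AHR detected, and the 21 together held 10 AHR reads. ENSG00000237773 overlaps the AHR locus on the opposite strand. Whether counting used the strand is not given in the sources used here, so reads of overlapping genes cannot be told apart, here and for the loci named below.

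ARNT (ENSG00000143437, chromosome 1, 150782189 to 150849075, minus strand), the partner that AHR shares with the hypoxia-inducible factors, was detected in 222 of 242 libraries (91.74%, exact 95% interval 87.5 to 94.9). Its share was 91.46% of the Hoechst run (75 of 82), 86.15% of the benzene run (56 of 65) and 95.79% of the imatinib run (91 of 95). Levels in single libraries were wide apart, with a median of 47.55 CPM and a range of 0 to 365.1 in the Hoechst run, a median of 17.63 and a range of 0 to 566.1 in the benzene run, and a median of 28.28 and a range of 0 to 396.2 in the imatinib run. The coefficient of variation over libraries was 114% in the Hoechst run and 184% in the benzene run. The paralogue ARNT2 had 2 reads in all kept libraries and was detected in none.

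The chaperones of the receptor complex were present. HSP90AB1 and HSP90AA1, the cytosolic chaperones, and PTGES3, the co-chaperone p23, were detected in all 242 libraries. Per 1000000 gene reads summed over all kept libraries HSP90AB1 stood at 5888, HSP90AA1 at 2504 and PTGES3 at 227.2. So 4 of the 6 genes of the receptor complex list passed 20% of libraries in each run, and the 2 that did not were AHR and ARNT2.

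The target genes of the receptor were split. CYP1A1 (ENSG00000140465, chromosome 15, 75011883 to 75017869, minus strand), the P450 most often used to read out AHR activity, had 2 reads in 1 library of the Hoechst run and 0 reads in the other 241. CYP1B1 (ENSG00000138061, chromosome 2, 38294652 to 38303293, minus strand), another P450 of that family, had 1 read in 1 Orange library of the imatinib run. CYP1B1-AS1 overlaps CYP1B1 on the opposite strand. In the 34 Orange libraries of the benzene run both had 0 reads in 46025449, which allows up to 0.0652 CPM and up to 8.82% of libraries with the gene detected. In the 31 Green libraries of that run both were at 0 too, which allows up to 0.071 CPM and up to 9.68%. A difference between benzene and no benzene was thus not detectable at this depth for CYP1A1 and CYP1B1, and no ratio is given. CYP1A2, ALDH3A1 and UGT1A6, the other targets listed that belong to the liver response, were near 0 as well: CYP1A2 was detected in 1 Orange library of the benzene run (12 reads) and in no Green library of that run, in 3 of 82 Hoechst libraries (22 reads), and in 1 of 50 Green (4 reads) and 1 of 45 Orange libraries (5 reads) of the imatinib run. ALDH3A1 and UGT1A6 had no read in the benzene run. First exons of the UGT1A genes share the rest of their transcript, so reads on UGT1A6 are uncertain.

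AHRR (ENSG00000063438, chromosome 5, 321829 to 438400, plus strand), the receptor's repressor, was detected in 6 of 82 libraries of the Hoechst run (7.317%, exact 95% interval 2.73 to 15.2). The share was 7 of 95 in the imatinib run (7.368%, 3.01 to 14.6) and 0 of 65 in the benzene run (0%, 0 to 5.52). The libraries with AHRR in the Hoechst run had 34, 32, 13, 8, 8 and 3 reads. In the imatinib run the Green libraries had 28, 10, 8 and 4 reads and the Orange libraries 131, 14 and 4 reads. The library with 131 reads, at 136.6 CPM, held 85.6% of the AHRR reads of its group, whose summed level fell from 2.699 to 0.3948 CPM without it, against 0.793 CPM in Green. In the benzene run AHRR had 1 read in Green and 1 in Orange, each in a library with more than 10000 genes detected. The groups overlapped in each run, most libraries being at 0.

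TIPARP (ENSG00000163659, chromosome 3, 156392379 to 156424559, plus strand) encodes PARP7, a mono-ADP-ribosyltransferase that modifies and restrains AHR. It was detected in 45 of 82 libraries of the Hoechst run (54.88%), 25 of 65 of the benzene run (38.46%) and 57 of 95 of the imatinib run. Its level was uneven, with many libraries at 0 and a few very high. The median and highest library stood at 2.594 and 286.9 CPM in the Hoechst run, 0.6528 and 780.9 CPM in the benzene run, and 7.334 and 614.6 CPM in the imatinib run. The coefficient of variation lay between 227% and 313% in the 3 runs. TIPARP was detected in all 12 libraries with more than 10000 genes and in 115 of the other 230. It was the only listed target besides NQO1, a quinone reductase, to pass 20% of libraries in each run.

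**Figure D2:**
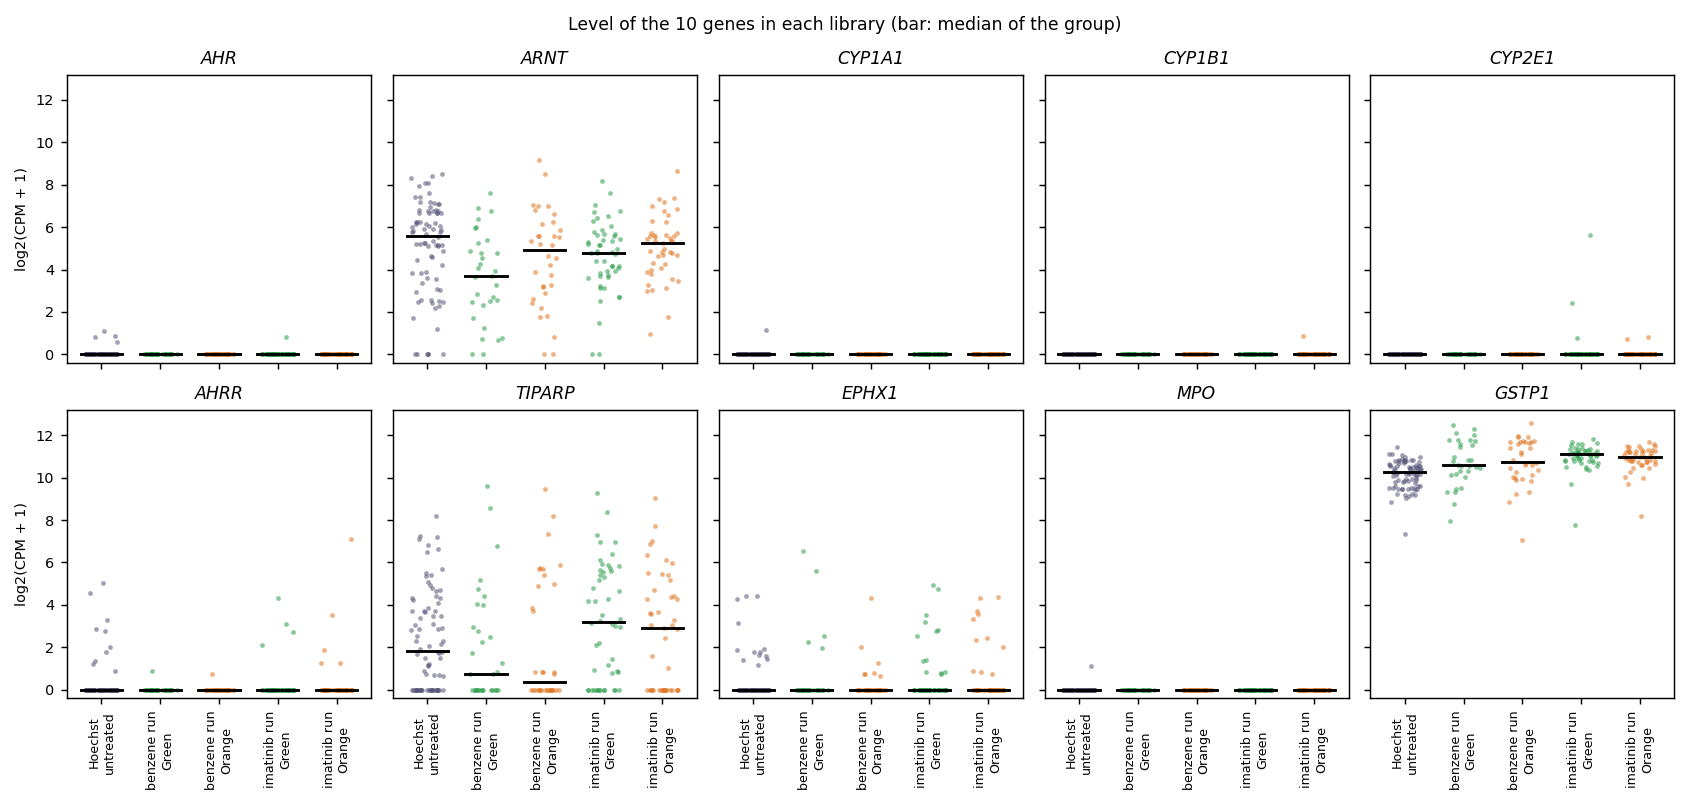
Level of each of the 10 genes (vertical axis, log2 of CPM + 1) in each kept library (points), by run and stain, with the median of each group as a bar. GSTP1 lies above 7 in each library, ARNT and TIPARP spread from near 0 to above 7 in each group, and AHR, CYP1A1, CYP1B1 and MPO lie at or near 0 throughout.

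The enzymes that open the benzene route were low. CYP2E1 (ENSG00000130649, chromosome 10, 135340867 to 135352627, plus strand) was detected in 2 Green libraries of the imatinib run, with 56 and 5 reads (48.29 and 4.383 CPM), and another Green library and 2 Orange libraries of that run had 1 read each. The library with 56 reads held 90.3% of its group's CYP2E1 reads, and without it the summed level fell from 0.9834 to 0.09695 CPM. In the Hoechst run and in the benzene run CYP2E1 had 0 reads, which allows up to 0.0652 CPM in Orange and up to 0.071 CPM in Green of the benzene run. AL161645.2 overlaps CYP2E1 on the opposite strand. CYP2F1, a lung P450, was detected in 1 Green and 1 Orange library of the benzene run, and CYP2A13 and CYP2B6 had no read there. POR and CYB5A, the reductase and the cytochrome b5 that hand electrons to P450 enzymes, were the 2 of the 6 genes of the oxidation list that passed 20% of libraries in each run. Hepatocyte markers, of which 4 of 5 were never detected in the imatinib run, reached a summed 34.7 CPM at most in its Green libraries.

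EPHX1 (ENSG00000143819, chromosome 1, 225997826 to 226033264, plus strand), the microsomal epoxide hydrolase that turns benzene oxide into the dihydrodiol, was detected in 9 of 82 libraries of the Hoechst run (10.98%), 7 of 65 of the benzene run (10.77%) and 15 of 95 of the imatinib run (15.79%). The exact intervals of the 3 shares overlapped, at 5.14 to 19.8, 4.44 to 20.9 and 9.12 to 24.7. Where detected, its median level was 2.841, 4.825 and 8.937 CPM in that order. TMEM63A overlaps EPHX1 on the opposite strand. EPHX2, the soluble hydrolase, was more common, in 51 of 82 libraries of the Hoechst run, and DHDH, the dihydrodiol dehydrogenase, in 17 of 82.

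MPO (ENSG00000005381, chromosome 17, 56347216 to 56358296, minus strand), the granulocyte peroxidase that oxidizes phenols to quinones in marrow, had 2 reads in 1 library of the Hoechst run and none in the other 241, or 0.006407 CPM over all kept libraries (exact 95% interval 0.0007759 to 0.02315). The library with the 2 MPO reads was also the library with the 2 CYP1A1 reads. The summed level of the 5 granulocyte genes, MPO among them, reached at most 45.2 CPM in the Hoechst run and 3.32 CPM in the other runs, with a median of 0 in each. NQO1 and NQO2, the reductases that return quinones to hydroquinones, stood at 206.0 and 365.3 CPM in the benzene run. NQO1 was lower in the Hoechst run, at 48.55 CPM with 49 of 82 libraries, than in the imatinib run, at 224.0 CPM with 93 of 95.

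GSTP1 (ENSG00000084207, chromosome 11, 67351283 to 67354124, plus strand), the pi-class glutathione transferase that conjugates electrophiles, was detected in all 242 libraries. It ranged from 163 to 2800 CPM (median 1215) in the Hoechst run, from 132.5 to 6056 (median 1655) in the benzene run and from 217.3 to 3668 (median 2123) in the imatinib run. On the log2 scale the mean was 10.15 ± 0.66 (SD over libraries, n = 82), 10.73 ± 1.10 (n = 65) and 10.94 ± 0.60 (n = 95). The benzene run thus held both the lowest and the highest library. Of the 8 genes of the conjugation list 6 passed 20% of libraries in each run, the exceptions being GSTM1 and UGT1A6. GSTO1, GSTK1 and GSTT1 followed GSTP1 in the benzene run, at 347.3, 311.9 and 88.85 CPM.

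**Figure D3:**
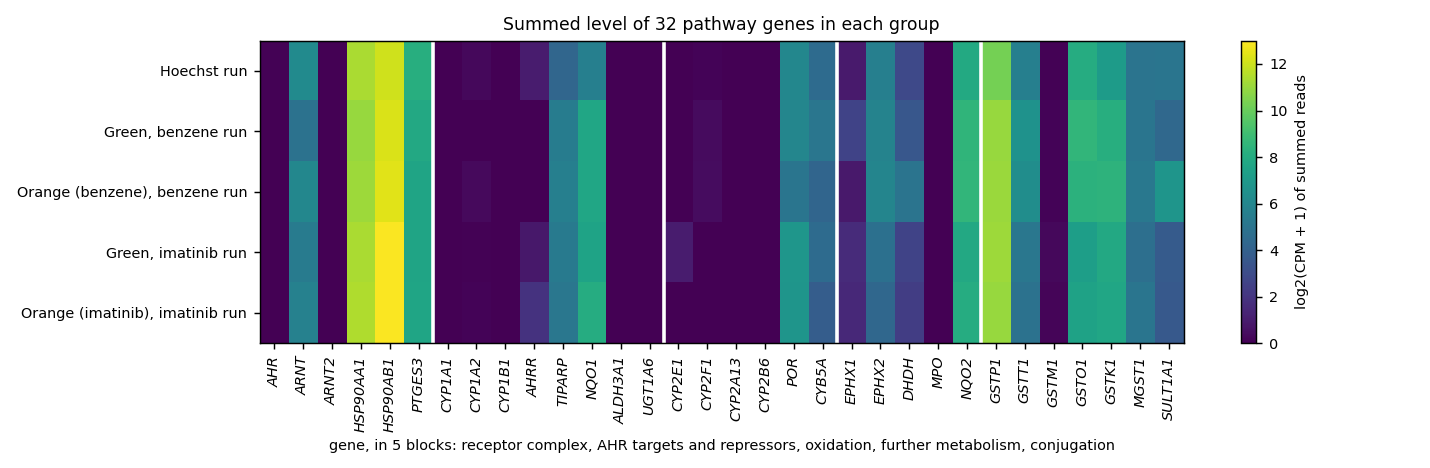
Level of 32 genes of the AHR and benzene pathways in the 5 groups, as log2 of CPM + 1 of the summed reads (colour), in 5 blocks from receptor complex to conjugation. HSP90AB1, HSP90AA1 and GSTP1 are the brightest columns in each group. AHR, ARNT2, GSTM1, UGT1A6 and the P450 columns are dark. The other columns of the receptor complex and the conjugating enzymes lie between these.

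The question for the benzene run is whether the genes stood at other levels in the benzene-treated Orange cells than in the untreated Green cells. Reads were summed per stain and scaled to CPM, 1 CPM was added, and a log2 ratio of at least 1 in size, a 2-fold difference, was counted. Only ARNT, TIPARP and GSTP1 passed the filter for this comparison, more than 2 reads in at least 20% of the 65 libraries, and 1 of the 3, ARNT, stood past 2-fold. Of all 9530 genes that passed the filter, 2112 stood past 2-fold (22.2%), of which 1101 were higher and 1011 lower in Orange. The median size of the log2 ratio over these genes was 0.463. The ratio depended on level. Of 5830 genes between 10 and 100 CPM, where ARNT and TIPARP lie, 27.4% stood past 2-fold, and of 100 genes at 1000 CPM or more, where GSTP1 lies, 0.0% did.

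ARNT was the gene past 2-fold. Green libraries ranged from 0 to 194.8 CPM with a median of 11.9, and Orange libraries from 0 to 566.1 CPM with a median of 29.49. The ranges overlapped across all of the Green values, and 2 libraries of each stain were at 0. Summed, ARNT stood at 29.07 CPM in Green (1229 reads, exact Poisson 95% interval 27.47 to 30.74) and at 64.9 CPM in Orange (2987 reads, 62.59 to 67.27). The log2 ratio of 1.13 had a counting interval of 1.06 to 1.26, which covers the sampling of reads and not the spread between cells. As a mean over libraries, log2(CPM + 1) was 3.64 ± 2.12 (SD, n = 31) in Green and 4.52 ± 2.27 (SD, n = 34) in Orange, a difference of 0.88 that is smaller than the spread between libraries in either stain. ARNT was detected in 25 of 31 Green (80.65%, exact 95% interval 62.5 to 92.5) and in 31 of 34 Orange libraries (91.18%, 76.3 to 98.1). The highest Orange library held 24.5% of the Orange ARNT reads, and without it the log2 ratio was 0.77. Over the 65 libraries left out in turn the ratio lay between 0.77 and 1.44, and it was past 2-fold in 63 of the 65.

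TIPARP did not stand past 2-fold. Green libraries ranged from 0 to 780.9 CPM with a median of 0.6959, and Orange libraries from 0 to 695.2 CPM with a median of 0.3264. It was detected in 13 of 31 Green libraries (41.94%, exact 95% interval 24.5 to 60.9) and in 12 of 34 Orange libraries (35.29%, 19.7 to 53.5). Summed, it stood at 42.41 CPM in Green and 47.28 CPM in Orange, a log2 ratio of 0.15. A few libraries carried most of this sum. The highest 2 libraries held 82.2% of the Green reads (931 and 542 of 1793) and 67.6% of the Orange reads (1007 and 465 of 2176). Leaving out 1 library at a time moved the log2 ratio from -0.67 to 1.14, so its direction rests on single libraries.

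GSTP1 differed little. Green libraries ranged from 249.9 to 5672 CPM with a median of 1575, and Orange libraries from 132.5 to 6056 CPM with a median of 1730. Summed, it stood at 2072 CPM in Green and 2104 CPM in Orange, a log2 ratio of 0.02 that ranged from -0.06 to 0.09 when libraries were left out in turn. The means of log2(CPM + 1) were 10.71 ± 1.09 (SD, n = 31) and 10.76 ± 1.12 (SD, n = 34).

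**Figure D4:**
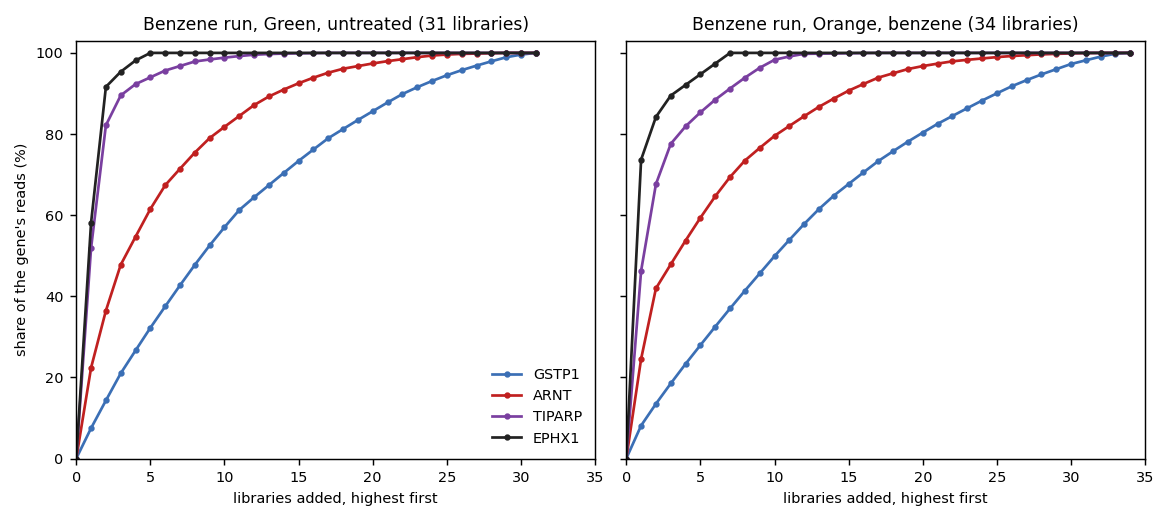
Cumulative share of a gene's reads (vertical axis, %) against the number of libraries added from the highest down, in the Green (31) and Orange (34) libraries of the benzene run. For EPHX1 and TIPARP the highest 2 Green libraries hold 91.6% and 82.2% of the reads, for ARNT 36.5% and for GSTP1 14.3%.

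The other 7 genes did not pass the filter. EPHX1 was detected in 5 of 31 Green libraries (16.13%, exact 95% interval 5.45 to 33.7) and 2 of 34 Orange libraries (5.882%, 0.72 to 19.7), intervals that overlap. Its summed level was 5.086 CPM in Green and 0.8256 CPM in Orange, but 2 Green libraries, at 91.69 and 48.07 CPM, held 91.6% of the Green sum and 1 Orange library held 28 of the 38 Orange reads. AHRR had 1 read in each stain. AHR, CYP1A1, CYP1B1, CYP2E1 and MPO had no read in either stain.

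Of the 22 pathway genes that are not among the 10, 13 passed the filter in the benzene run. Of these 13, 1 stood past 2-fold higher in Orange and 0 lower, where 22.2% of all genes compared stood past 2-fold. The median log2 ratio of the 13 was 0.05, against 0.04 over all genes compared. SULT1A1, a phenol sulfotransferase, stood at 19.73 CPM in Green and 108.0 CPM in Orange, a log2 ratio of 2.40. It was detected in 11 of 31 Green and 15 of 34 Orange libraries, and its median over libraries was 0.8647 CPM in Green and 0.8103 CPM in Orange. The highest Orange library alone held 47.5% of the Orange SULT1A1 reads, and leaving out 1 library at a time gave log2 ratios of 1.52 to 3.15. SULT1A1 has near-identical copies, so reads placed on it are uncertain. ARNT and SULT1A1 had their highest Orange values in different libraries. POR and CYB5A had log2 ratios of summed reads of -0.93 and -0.87 with overlapping ranges. Other measures went the opposite way. POR was detected in 14 of 31 Green and 20 of 34 Orange libraries, and CYB5A in 11 of 31 and 16 of 34. Mean log2(CPM + 1) over libraries was higher in Orange by 0.02 for POR and by 0.35 for CYB5A. With libraries left out in turn the CYB5A ratio ran from -1.07 to -0.38. The highest Green library held 61.2% of the Green POR reads, and with libraries left out in turn the POR ratio ran from -1.56 to 0.37. Summed NQO1 stood at 209.2 CPM in Green and 203.1 CPM in Orange, but other measures were higher in Orange. It was detected in 23 of 31 Green and 29 of 34 Orange libraries. Its mean log2(CPM + 1) was 5.39 ± 3.42 (SD over libraries) in Green and 6.29 ± 2.84 in Orange. That difference of 0.91 is smaller than the spread between libraries in either stain. Summed HSP90AB1 stood at 4905 CPM in Green and 5514 CPM in Orange.

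**Figure D5:**
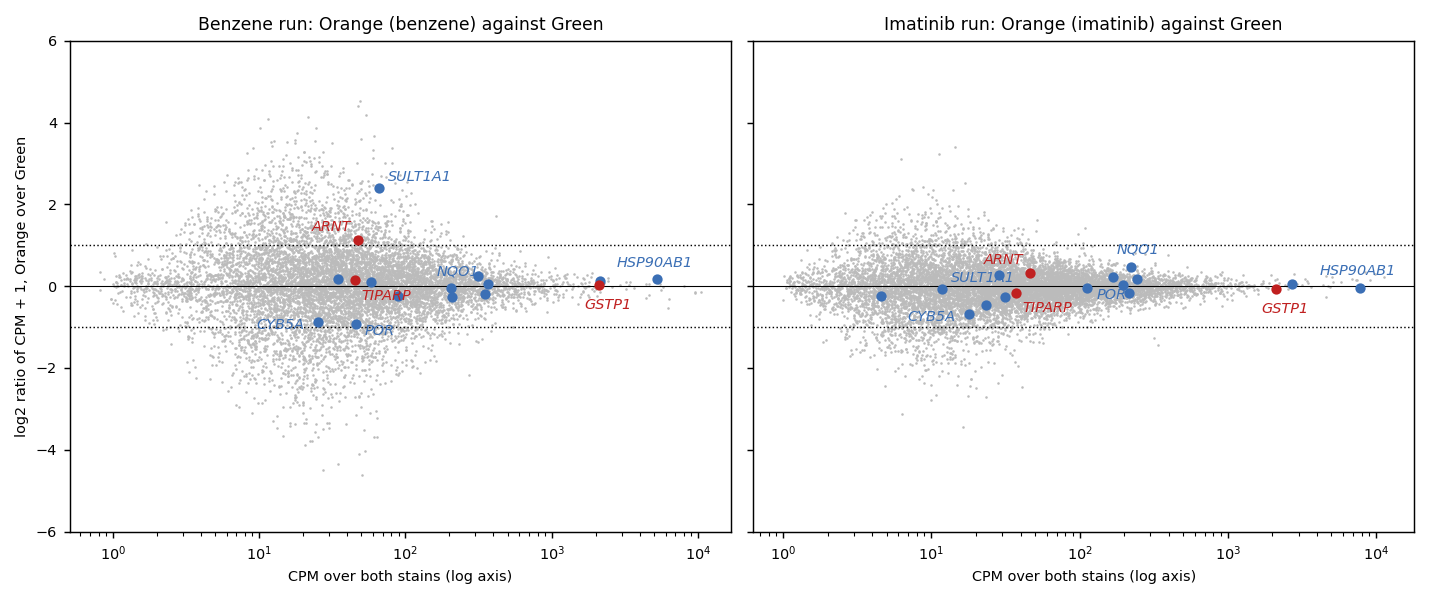
Log2 ratio of CPM + 1, Orange over Green (vertical axis), against the CPM over both stains (horizontal, log axis) for all genes that passed the filter (grey), with the genes described here in red and other pathway genes in blue. In the benzene run ARNT and SULT1A1 lie above the dotted 2-fold line, and in the imatinib run no pathway gene passes it.

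The imatinib run holds the same pair of dyes with another drug. Of 10834 genes compared there, 745 stood past 2-fold (6.88%), and 0 of the 3 genes that passed the filter did. ARNT stood at 41.62 CPM in Green and 52.1 CPM in Orange (log2 ratio 0.32), TIPARP at 38.95 and 34.86 CPM (-0.16), and GSTP1 at 2153 and 2049 CPM (-0.07). The ARNT ratio ran from 0.10 to 0.48 when libraries were left out in turn, and the TIPARP ratio from -0.77 to 0.11. Of the 22 other pathway genes 14 passed the filter and 0 stood past 2-fold. For ARNT the log2 ratios in the benzene run and in the imatinib run were thus 1.13 and 0.32, and for SULT1A1 2.40 and -0.08. Whether the runs differ in these ratios was not tested, since each holds 1 culture per stain. The benzene run had 65 kept libraries and a median of 5905 genes detected, against 95 and 8022 in the imatinib run. The part of this in the ratios and in the shares past 2-fold was not tested.

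Untreated Green cells of both CellTracker runs, which share a stain and a passage label, show how far 2 untreated groups stood apart. Culture and run differed together there and cannot be told apart. The mix of fresh, fixed and bulk libraries in each group is not known from the labels. Of 10249 genes compared, 3038 stood past 2-fold (29.6%), a larger share than between stains within the benzene run, and 0 of the 3 genes did. Green ARNT stood at 41.62 CPM in the imatinib run and 29.07 CPM in the benzene run (log2 ratio 0.50). For TIPARP the log2 ratio was -0.12 and for GSTP1 0.06. The direction for TIPARP turned with the measure: its median was 8.178 CPM in Green of the imatinib run and 0.6959 CPM in Green of the benzene run, and leaving out 1 library at a time moved the log2 ratio from -0.38 to 0.86. As a difference of mean log2(CPM + 1) over libraries TIPARP stood at 1.21 and ARNT at 1.01, 2 of the 3 genes then being past 2-fold, while the median over all genes moved from 0.11 to 0.81. Of the other pathway genes that passed the filter, 3 stood past 2-fold lower in the imatinib run, namely GSTT1 (34.07 against 96.6 CPM), GSTO1 (155.1 against 371.5 CPM) and EPHX2 (26.93 against 56.01 CPM). The Green libraries of the benzene run also had fewer genes detected, with a median of 5963 against 8082, and the part of this in the differences was not tested.

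The Hoechst run came from cells with other passage labels and stains. A gene was counted where it stood past 2-fold in the same direction against Green of both CellTracker runs, which held for 1701 of 10598 genes (16.1%) and for TIPARP among the 3. Both comparisons share the Hoechst libraries. Summed TIPARP stood at 18.72 CPM in the Hoechst run against 42.41 and 38.95 CPM in the 2 Green groups (log2 ratios -1.14 and -1.02). Single libraries weighed on this: without the highest Green library of the benzene run that ratio was -0.16, and 111 of 113 and 108 of 132 left-out values stayed past 2-fold. As a share of libraries TIPARP was detected in 54.88% of the Hoechst run, against 13 of 31 and 31 of 50 libraries of the Green groups. Its mean log2(CPM + 1) over libraries was 2.37 in the Hoechst run, against 2.04 in Green of the benzene run (difference 0.33, the opposite direction) and 3.25 in Green of the imatinib run (difference -0.88), and the medians were 2.594, 0.6959 and 8.178 CPM. By that measure, and with a pseudocount of 10 CPM, TIPARP was not past 2-fold against both Green groups. ARNT stood at 74.75 CPM, log2 ratios of 1.33 and 0.83, and GSTP1 at 1256 CPM, log2 ratios of -0.72 and -0.78. The median mitochondrial share of reads was 12.5% in the Hoechst run and 6.48% and 6.68% in the benzene and imatinib runs. With mitochondrial genes left out of the total, 0 of the 10 genes stood past 2-fold in this comparison.

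For ARNT and GSTP1, each detected in at least 50% of libraries of each run, the genes with the most similar pattern over libraries were found by Spearman correlation of log2(CPM + 1) within each run, taking the median of the 3 runs over 5098 genes. GSTP1 was most like GAPDH (0.526), RPL32 (0.515) and RPS3 (0.512), a glycolytic enzyme and 2 ribosomal proteins, where the median gene stood at 0.0532. For RPL32 the value was 0.81 in the benzene run and 0.198 in the Hoechst run. ARNT was most like NPEPPS (0.338), SF3B3 (0.323) and FNDC3B (0.306), weak values that ranged down to 0.0417, 0.223 and -0.133 in the lowest run. ARNT and GSTP1 stood at -0.0844 to each other. The points are libraries that share a culture and a range of depths, so the values are a description only.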

How the data were processed

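The authors trimmed reads with skewer, aligned them with HISAT2 to GRCh37 plus ERCC sequences, and assigned reads with a unique position to the genes of Ensembl 75 by featureCounts (Subread 1.5.0), so reads that fit several places or several genes are missing. The deposited count table holds raw counts per gene and library. Duplicates were marked with Picard 1.92, and whether the counts include them is not given in the sources used here. A CPM table deposited beside it gives counts per 1000000 reads with ERCC included, which recomputed values matched to 4.97e-07, and it was used for 1 alternative. Per-sample columns without a title, 4 in number, were not used.

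Levels are reads per 1000000 gene reads. Symbols, positions and lengths came from GENCODE v44lift37, in which 55665 of 63677 gene identifiers were found. Reads carry no molecular identifiers, so the exact Poisson and Clopper-Pearson 95% intervals, and the limits of 3 reads for a count of 0, cover counting error only. Libraries with more than 70% of gene reads in the 500 highest genes were left out (21 of 263), and no libraries had identical counts. With 1 culture per group no test was made. Ratios are of summed reads with a pseudocount of 1 CPM. The calculation was also run on simulated Poisson counts without variation between libraries, so that run says nothing about the spread between cells. The text names all 10 genes, of 22 further pathway genes those past 2-fold in the benzene run and up to 4 with the highest level per list, and the 3 genes most like each gene detected in at least 50% of libraries of each run. Further pathway genes (POR and CYB5A ratios, those past 2-fold between the Green groups, and undetected genes) were named after their values were seen. Some genes of the lists are not reported here. The genes, lists and comparisons were chosen with earlier results of these data known. Alternatives were other pseudocounts, scalings (TMM of edgeR 4.0.16, size factors of DESeq2 1.42.0, in R 4.3.3), filters, detection limits and left-out libraries. Python 3.11.15, numpy 2.4.6, pandas 2.3.3, scipy 1.17.1 and matplotlib 3.10.9 were used.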

Additional observations from a re-analysis of the deposited data

Results flagged for a closer look

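AHR had 9 reads in 1 library of the Hoechst run that was left out of the comparisons, above the 2 reads that no kept library exceeded. The library held 450056 gene reads, 1795 genes with more than 2 reads, 96.2% of its reads in the 500 highest genes and 77% in mitochondrial genes. The 9 reads correspond to 20.0 CPM, and the part of the low complexity in this value was not tested.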

How the results depend on the processing

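The number of the 10 genes detected in at least 20% of libraries was 3 in each run under the 6 alternatives tried, except that it was 4 in the imatinib run with at least 1 read, EPHX1 having a read in 24 of 95 libraries. Of 90 alternative values for counts over genes, 71 stayed within 1.5 times the reported count and 19 did not. Of 261 alternative values for single genes, 210 stayed within the exact 95% counting interval of the reported value and 51 did not. With a pseudocount of 10 CPM, 0 of the 10 genes stood past 2-fold in the benzene run and 0 in the Hoechst run, and all genes past 2-fold fell to 1084 (benzene run), 97 (imatinib run), 1556 (Green against Green) and 734 (Hoechst run). With the mean of log2 over libraries, 0, 2 and 0 of the 10 stood past 2-fold in the benzene, Green against Green and Hoechst comparisons, and all genes past 2-fold fell to 802 in the benzene run and 259 in the imatinib run. With mitochondrial genes left out of the total, 0 of the 10 stood past 2-fold in the Hoechst comparison. With no filter on detection, 2, 1 and 1 of the 10 stood past 2-fold in the benzene, imatinib and Green comparisons, and all genes past 2-fold rose to 5483, 2420, 6065 and 3372, more genes being compared. The cause of the other shifts was not tested. The log2 ratio of ARNT in the benzene run lay between 0.77 and 1.24 over 9 alternatives, that of TIPARP between -0.67 and 0.22 and that of GSTP1 between -0.06 and 0.05. In the mean of log2 the median over all genes of the Green comparison moved from 0.11 to 0.81 (log2), and the TIPARP value there moved from -0.12 to 1.21. The share of genes past 2-fold that were higher moved by over 10 points there (61.3% to 95.1%, and 48% with DESeq2 size factors), in the Hoechst comparison (68% to 51.2% with TMM and 42.6% with DESeq2 size factors) and in the benzene run (52.1% to 64.5% with the mean of log2). No paired analysis was possible because each group is 1 culture and no test was made. For AHR, CYP1A1, CYP1B1, CYP2E1 and MPO in the benzene run, 0 reads allowed up to 0.0652 CPM in Orange and 0.071 CPM in Green. Below these levels nothing can be said. The limits cover counting error only and not the spread between cells. In Green of the imatinib run, for example, 1 library held 56 of the 62 CYP2E1 reads.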
